A study of Mus musculus with 75 samples.

Results

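Rad21 binding was compared between ana/telophase and early G1 in mouse G1E-ER4 cells, to describe which cohesin sites were lost, kept and gained as cells left mitosis. The peaks compared were all 7995 Rad21 peaks of the ana/telophase list and all 8694 of the early-G1 list, together 16689 of the 246850 CTCF and Rad21 peaks of the series. An overlap of 1 bp or more between peaks of both lists counted as a match. Ana/telophase peaks without a match are called lost, early-G1 peaks without a match are called gained, and matched peaks are called kept. The line was derived from G1E, mouse proerythroblasts that lack GATA1, and was used uninduced, so all cells compared here had no active GATA1. Cells of all stages except the asynchronous cells had been held in pro-metaphase by 200 ng/ml nocodazole, a drug that blocks the mitotic spindle, for 7 to 8.5 h. Ana/telophase cells were collected 25 min and early-G1 cells 60 min after the drug was washed out, with 2 Rad21 chromatin immunoprecipitation (ChIP-seq) samples each, and stages were purified by flow sorting. These are 4 of the 75 samples of the series. The later lists used for comparison are mid G1 at 120 min, late G1 at 240 min and asynchronous cells, which were not held in nocodazole.

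Rad21 is the kleisin subunit of cohesin, the ring-shaped complex that holds sister chromatids together and extrudes chromatin loops. During mitosis most cohesin leaves the chromosome arms, Rad21 that still holds the sisters together is cut by separase at anaphase onset, and cohesin is loaded again as nuclei form. CTCF is a zinc-finger DNA-binding protein at which extruding cohesin stalls, so that in interphase cohesin is mapped mostly at CTCF sites, at loop anchors and at the stripes that one-sided extrusion leaves in contact maps.

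Each list pools the 2 samples of its stage after merging and downsampling, which leaves no replicate spread to test against, and no difference below carries a p-value. Shares are given with exact 95% binomial intervals and medians with 95% intervals from order statistics, and both cover counting error only. The read depth behind the lists is unknown. Fold enrichment is the authors' own value per peak and was used to rank peaks within a list, as a percentile from 0 (weakest) to 100 (strongest). No difference in fold between stages was computed. Where folds of both stages are printed for a site, they are the listed values of separate lists and not a measure of change. A peak absent from a list is a peak not called there, which is not the same as no binding.

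Of the ana/telophase peaks, 5775 (72.2%, interval 71.2% to 73.2%) had a match in early G1 and 2220 (27.8%) were lost. Of the early-G1 peaks, 5772 were the matched partners and 2922 (33.6%, interval 32.6% to 34.6%) were gained. The list thus grew by 699 peaks in all, while 5142 peaks stood in 1 of the lists alone. The following step, from early G1 to mid G1, uses the early-G1 list a second time and had another make-up: 96.9% of its peaks were kept, 267 were lost and 7347 were gained. From mid G1 to late G1 93.4% were kept. For CTCF over the same step from ana/telophase to early G1, 88.0% (interval 87.6% to 88.3%) of 33127 peaks were kept and 13.7% of 33815 were gained. From pro-metaphase to ana/telophase 25.2% of only 596 Rad21 peaks were lost, and from late G1 to asynchronous cells 31.6% were. Between ana/telophase and early G1 the share of Rad21 peaks lost was thus larger than in the steps from early to mid G1 and from mid to late G1 and than in the CTCF step, beyond counting error, and was not larger than in the step from late G1 to asynchronous cells. The Rad21 lists matched against differ in length, with 8694 peaks in early G1, 15762 in mid G1, 18958 in late G1 and 13625 in asynchronous cells. How far that length sets the share lost was not tested.

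The rule of 1 shared bp left few close cases. The 5776 matched pairs shared a median of 203 bp, their summits lay a median of 17 bp apart, and 2 pairs shared under 50 bp. The smallest overlap was 23 bp, between an ana/telophase peak at chr13:113320426-113320595 and an early-G1 peak at chr13:113320284-113320448 (build mm9, as all positions here). Just outside the rule, the lost peak at chr4:120053879-120054027 directly adjoined the early-G1 peak at chr4:120053691-120053878. Only 16 of the 2220 lost peaks lay within 500 bp of an early-G1 peak, and 22 of the gained peaks lay within 500 bp of an ana/telophase peak. The median gap was 77099 bp for lost and 66394 bp for gained peaks. Few lost or gained peaks thus lay beside a peak of the other list.

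Lost and gained peaks came from the weak end of each list. In ana/telophase the median fold enrichment was 4.62 at lost and 6.65 at kept peaks, which put the median lost peak at percentile 22.8 and the median kept peak at percentile 61.8. In early G1 the median was 5.68 at gained peaks (percentile 28.8) and 8.23 at kept peaks (percentile 64.0). Lost peaks were narrower, with a median width of 168 bp (interval 166 to 170 bp) against 219 bp (218 to 222 bp) at kept peaks of the same list. Gained peaks were 196 bp (195 to 198 bp) wide against 252 bp (250 to 254 bp). Of the lost peaks 23.0% had the smallest width in their list, 149 bp, against 3.48% of kept peaks. A −log10 q under 5 was listed for 50.1% of lost and 9.25% of kept ana/telophase peaks, and for 11.5% of gained and 2.53% of kept early-G1 peaks. Lost and gained peaks were thus each nearer the calling limit than kept peaks of their own list. Kept peaks also differed between the lists, so lost and gained peaks cannot be compared with each other by this value.

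The strongest sites stayed. The 100 strongest peaks of ana/telophase were all kept, as were the 100 strongest of early G1, and of the strongest 1000 the matched share was 99.8% and 99.3%. The top quartile of the ana/telophase list held 29 of the 2220 lost peaks (1.31%), and the top quartile of the early-G1 list held 102 of the 2922 gained peaks (3.49%). The kept site strongest in both lists together, chr5:65204720-65205093 in ana/telophase and chr5:65204690-65205066 in early G1, had a listed fold of 31.1 and 36.5, with CTCF at both stages and in pro-metaphase. It lay at a new loop anchor and a new stripe anchor of early G1. The next site, chr2:153412276-153412626 in early G1, was the strongest of all in ana/telophase with a fold of 31.7 and was listed at 33.2 in early G1.

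Within the kept sites the order of strength was only partly preserved. Over the 5776 pairs, the percentile in early G1 minus that in ana/telophase had a median of 0.21 and quartiles of −15.9 and 16.2. Percentiles are ranks within the whole lists of 7995 and 8694 peaks, so the centre of these differences also depends on where lost and gained peaks rank. Only their spread is read here. A total of 942 pairs stood more than 25 percentile points higher in early G1 and 961 more than 25 points lower. Spearman's rho between both percentiles was 0.54 across pairs, which are sites from 2 pooled lists and not replicates. The largest upward difference was at chr13:113464305-113464585, which was at percentile 1.26 in ana/telophase (fold 3.14) and at percentile 94.3 in early G1 (fold 15.6). The largest downward difference was at chr14:65946838-65947156, at percentile 94.1 in ana/telophase (fold 12.4) and 3.16 in early G1 (fold 3.83).

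CTCF separated the lost peaks into 2 sets. An ana/telophase CTCF peak overlapped 1297 of the 2220 lost peaks (58.4%, interval 56.3% to 60.5%) and 98.4% of the kept peaks, where the whole ana/telophase list stood at 87.3%. In early G1, CTCF overlapped 99.8% of kept and 96.0% of gained peaks, against 98.5% of the whole early-G1 list. Loss of Rad21 with CTCF was not accompanied by loss of CTCF: 1282 of the 1297 sites (98.8%, interval 98.1% to 99.4%) still held a CTCF peak in early G1, and 96.9% did in late G1. Among the other 923 lost peaks, 36 had a CTCF peak in early G1 and 887 had none at either stage. No CTCF peak of any of the 6 CTCF lists overlapped 865 lost peaks. Most lost peaks without ana/telophase CTCF were near the calling limit. A −log10 q under 5 was listed for 78.4% of those on chromosome 1 and 76.8% of those on other chromosomes, against 50.1% of all lost peaks. The share of lost peaks with ana/telophase CTCF was 90.6% when the Rad21 lists were cut to a fold of at least 5 and matched again. A peak whose early-G1 partner fell below that limit then counted as lost, so these 1164 peaks are not a subset of the 2220. The share was 26.9% when an overlap had to cover at least 50% of both peaks, which also took the kept peaks from 98.4% to 65.1%.

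Most gained peaks lay at sites with CTCF in ana/telophase, though less often than kept peaks did. Of the 2922 gained peaks, 2496 (85.4%, interval 84.1% to 86.7%) had a CTCF peak in both stages, against 98.3% of the 5772 kept early-G1 peaks. A CTCF peak present in early G1 and absent from the ana/telophase list was found at 309 gained peaks (10.6%). No CTCF peak of either stage overlapped 113. The 3 strongest gained peaks with CTCF at both stages were at chr15:6030751-6031042 (fold 17.6), chr5:43751574-43751852 (fold 15.6) and chr14:97361603-97362025 (fold 14.2). All 3 had CTCF in ana/telophase but not in pro-metaphase, all 3 were listed for Rad21 in mid G1, late G1 and asynchronous cells, and all 3 lay at an anchor of a new early-G1 loop. The strongest gained peak whose CTCF was absent from the ana/telophase list, chr10:41238304-41238546, had a Rad21 fold of 11.4 and a CTCF fold of 12.3 in early G1.

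Pro-metaphase CTCF differed between the classes. CTCF peaks of pro-metaphase, when most CTCF has left the chromosomes, overlapped 65.6% (interval 64.4% to 66.8%) of kept, 37.0% (35.2% to 38.7%) of gained and 34.1% (32.1% to 36.1%) of lost peaks. Among peaks with CTCF at the stage of their own list, the order changed: 66.7% of kept, 58.3% (55.6% to 61.0%) of lost and 38.5% (36.7% to 40.3%) of gained peaks had it. Gained peaks with CTCF thus had pro-metaphase CTCF less often than lost peaks with CTCF. Of all 33127 ana/telophase CTCF peaks, 11541 matched a pro-metaphase CTCF peak and 65.2% did not. The share at gained peaks with CTCF lay nearest to this whole-list value, and those at kept and lost peaks lay further above it. The difference between gained and kept peaks was present at equal Rad21 rank: in the strongest quartile of the early-G1 list, 34.3% (25.2% to 44.4%) of gained and 71.5% (69.5% to 73.4%) of kept peaks held pro-metaphase CTCF, and in the weakest quartile 34.8% and 59.9% did. Rad21 itself was listed in pro-metaphase at 434 kept, 26 gained and 5 lost peaks, and the pro-metaphase Rad21 list holds only 596 peaks.

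**Figure D1:**
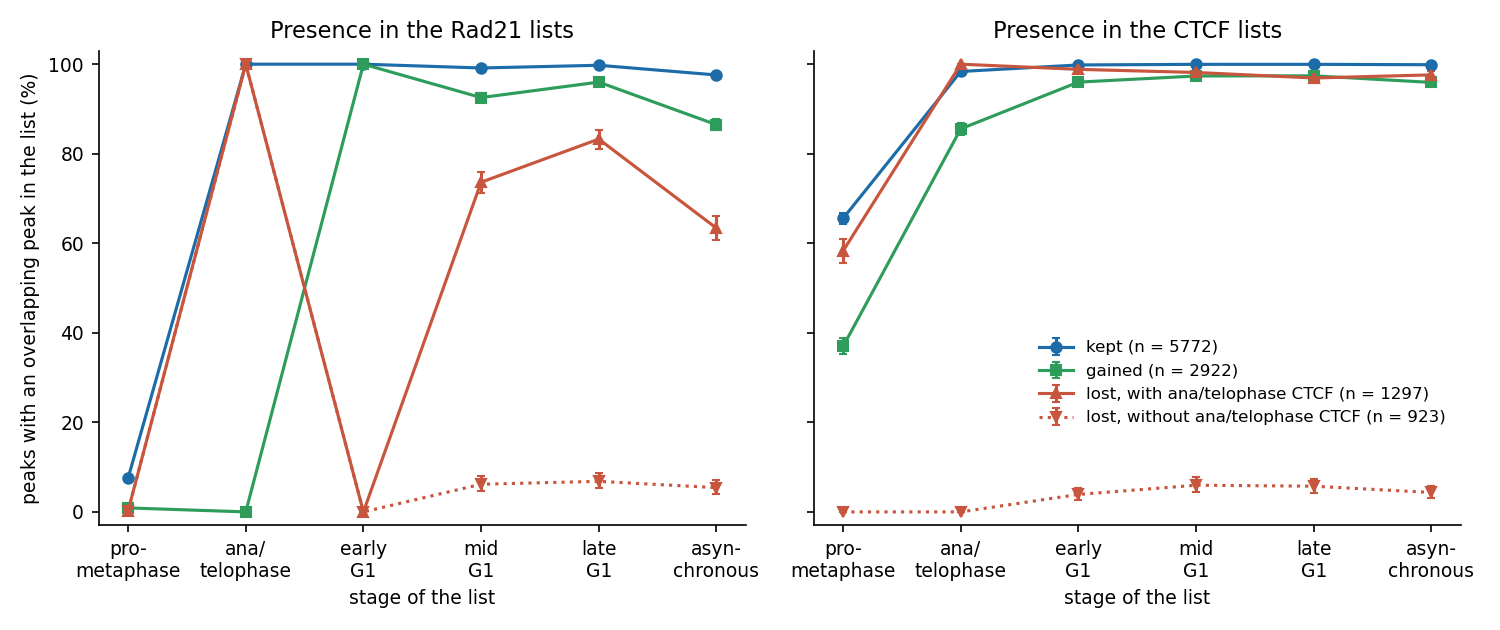
Share of Rad21 peaks (%, vertical axis) that overlap a peak of each of the 6 Rad21 lists (left) and the 6 CTCF lists (right), by stage on the horizontal axis; points are kept, gained and lost peaks, lost peaks are split by ana/telophase CTCF, and bars are exact 95% binomial intervals. Lost peaks with CTCF return to 83.3% in late G1 and keep their CTCF, while lost peaks without CTCF stay at 6.83% or less in the later Rad21 lists.

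The matched share went with rank and, at equal rank, with CTCF. Among ana/telophase peaks with CTCF, the share found in early G1 was 62.7% (59.9% to 65.4%) in the weakest quartile, 69.3% in the second, 86.7% in the third and 98.6% in the strongest. Among those without CTCF it was 5.20% (41 of 788 peaks) in the weakest quartile, 15.7% (31 of 198) in the second and 70.0% (21 of 30, interval 50.6% to 85.3%) in the third, with a single peak in the strongest. At equal rank in the lower 2 quartiles, peaks with CTCF were thus matched far more often than peaks without, beyond counting error. Of the early-G1 peaks with CTCF, 42.6% of the weakest quartile had a match in ana/telophase and 95.4% of the strongest did.

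**Figure D2:**
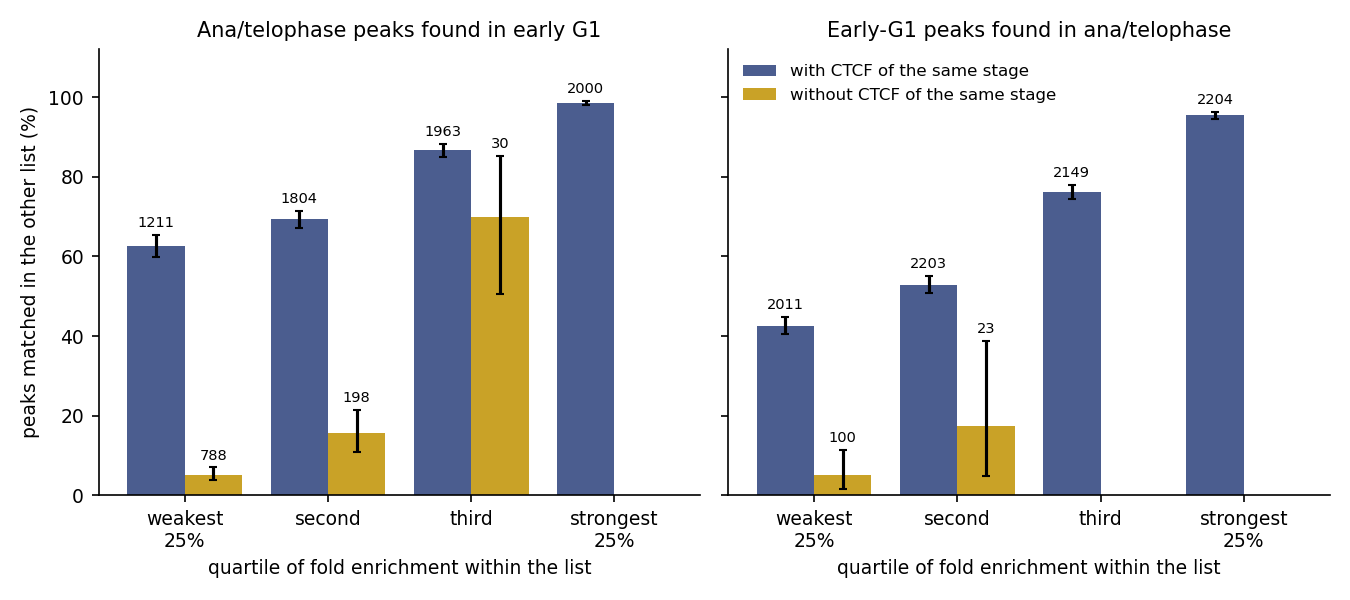
Share of peaks matched in the other list (%, vertical axis) by quartile of fold enrichment within the list (horizontal axis), for ana/telophase peaks (left) and early-G1 peaks (right), with and without a CTCF peak of the same stage; numbers above the bars are peaks, error bars are exact 95% binomial intervals, and groups under 20 peaks are not drawn. The share climbs from 62.7% to 98.6% for ana/telophase peaks with CTCF and starts at 5.20% for those without.

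Most lost peaks with CTCF were listed again later, and most of those without CTCF were not. Over all lost peaks, 1184 (53.3%, interval 51.2% to 55.4%) overlapped a Rad21 peak of mid or late G1, against 86.9% of all ana/telophase peaks, and 1019 (45.9%) were in none of the mid-G1, late-G1 and asynchronous lists. Lost peaks with CTCF were found in mid or late G1 at 86.4% (1120 of 1297, interval 84.4% to 88.2%). Without CTCF the share was 6.93% (64 of 923, interval 5.38% to 8.77%), and it was 1.04% (9 of 865) where none of the 6 CTCF lists had a peak. Within the weakest quartile of the ana/telophase list the same contrast held, with 80.5% of 452 lost peaks with CTCF and 4.28% of 747 without CTCF listed again. Of the lost peaks with CTCF, 165 came back in late G1 but not in mid G1, and 40 were in mid G1 but not in late G1. All 29 lost peaks of the strongest quartile were in the mid-G1 or the late-G1 list. The later lists are longer, with 15762 and 18958 peaks, and how far that length sets the share was not tested. With all Rad21 lists cut to a fold of at least 5 and matched again, 83.9% of the lost peaks were in mid or late G1. These include peaks whose early-G1 partner fell below the limit.

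The strongest lost peak, chr5:123599688-123599996, had an ana/telophase fold of 11.8 at percentile 93.2 and was in the mid-G1, late-G1 and asynchronous lists. CTCF was in all 6 lists there, with a listed fold of 59.6 in ana/telophase and 33.7 in early G1. The next, chr15:103012653-103012873, had a fold of 10.1 and was likewise in all 3 later lists, with a CTCF fold of 62.8 and then 68.1. The peak at chr14:46051706-46051979 (fold 9.82) was found in late G1 alone among the later lists. CTCF peaks were called in all 6 lists at each of these 3 sites.

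The strongest lost peak in no later Rad21 list was at chr15:61821861-61822379. It was 519 bp wide, the widest lost peak, with a Rad21 fold of 7.69, and it overlapped a CTCF peak with a fold of 49.2 in ana/telophase and none in the other 5 CTCF lists. The site lay in a new early-G1 loop anchor and a new stripe anchor although neither protein was called on it in early G1. The stripe anchor, 61810001 to 61830000, also held a kept Rad21 peak and a gained one at chr15:61817067-61817317. The strongest lost peaks without CTCF in any list were at chr1:110637568-110637742 and chr17:62360612-62360781, both with a fold of 6.07, and at chr14:82858813-82858993 with a fold of 5.83. None of these 3 was in another Rad21 list, and none lay at a new loop or stripe anchor.

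Gained peaks persisted. In mid G1 92.5% (interval 91.5% to 93.5%) of them were listed, against 96.9% of the whole early-G1 list and 99.2% of the kept peaks, and 96.8% were in mid or late G1. Of the gained peaks with CTCF 98.9% were in mid or late G1, and of the 117 without it 46.2% (54 peaks, interval 36.9% to 55.6%) were. In asynchronous cells the share was 86.5% of gained and 97.6% of kept peaks. The strongest gained peaks without early-G1 CTCF, chr10:17441889-17442380 and chr13:21366965-21367204, had a fold of 7.96 each and stood in all 3 later Rad21 lists.

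CTCF rank within its list differed between the stages in the same direction as Rad21. Over sites with CTCF at both stages, the median CTCF percentile was 59.0 in ana/telophase and 69.4 in early G1 at gained Rad21 peaks, 80.5 and 82.3 at kept peaks, and 78.2 and 72.2 at lost peaks. The median difference per site, early G1 minus ana/telophase, was 9.78 (8.83 to 10.9) percentile points at gained, 1.92 (1.51 to 2.29) at kept and −1.76 (−2.52 to −1.03) at lost peaks. Over all 29214 CTCF pairs of both stages it was 0.40. The CTCF percentile was higher in early G1 at 72.6% of gained, 57.2% of kept and 42.8% of lost sites, and at 51.2% of all CTCF pairs. These values cover the 1282 of 2220 lost and 2496 of 2922 gained peaks with CTCF at both stages. Such lost sites were thus strong CTCF sites in ana/telophase, at nearly the rank of kept sites. Such gained sites were weaker ones whose CTCF rank was higher in early G1.

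The same relation ran through the kept sites. Kept pairs whose Rad21 percentile was more than 25 points higher in early G1 had a median CTCF difference of 14.3 (12.7 to 15.9), and 83.2% of 916 were higher. Pairs more than 25 points lower had a median of −5.19 (−6.36 to −4.09), and 32.6% of 948 were higher. Across the 5679 kept pairs with CTCF at both stages, Spearman's rho between the Rad21 and CTCF differences was 0.43 and Pearson's r was 0.45. The pairs share 4 pooled lists, and differences of percentiles at the ends of a list are bounded, so that a site weak at first can only move up. The site with the largest upward Rad21 difference, chr13:113464305-113464585, had a CTCF fold of 11.0 in ana/telophase and 19.8 in early G1. That with the largest downward difference, chr14:65946838-65947156, had 51.8 and then 15.5. These folds are listed values of separate lists, and the CTCF percentiles of these sites are not given here.

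**Figure D3:**
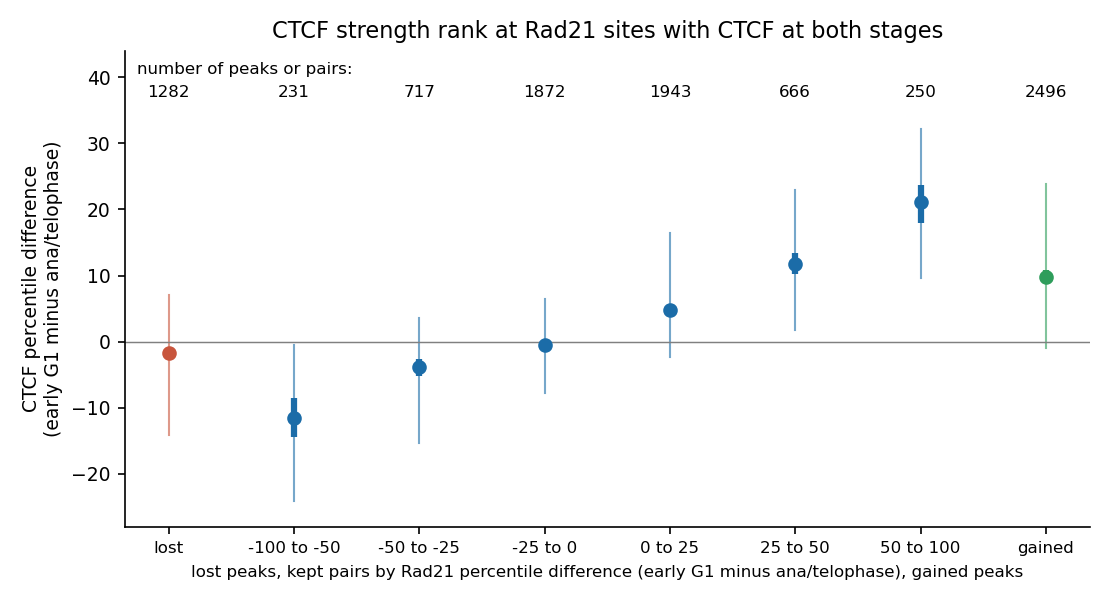
Difference in CTCF percentile, early G1 minus ana/telophase (percentile points, vertical axis), at lost peaks, at kept pairs in 6 bins of Rad21 percentile difference and at gained peaks (horizontal axis); points are medians, thick bars their 95% intervals, thin lines run from the lower to the upper quartile, and numbers are peaks or pairs with CTCF at both stages. The median goes from −11.5 in the bin where Rad21 was lowest in early G1 relative to ana/telophase to 21.2 in the bin where it was highest.

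Lost peaks without CTCF were unevenly spread over the chromosomes. Chromosome 1 held 324 of the 923 (35.1%, interval 32.0% to 38.3%), against 7.00% of ana/telophase CTCF peaks, 9.52% of kept Rad21 peaks and 10.6% of lost peaks with CTCF. As a result 461 of its 1011 ana/telophase Rad21 peaks (45.6%) were lost, the largest share of the 20 chromosomes. Among its peaks with CTCF the share lost was 20.3% (17.3% to 23.5%). The 324 peaks lay in all 20 windows of 10 Mb, with 6 to 29 in each, so they were not 1 cluster. Their median fold of 4.04 (3.95 to 4.15) was close to the 4.26 (4.05 to 4.33) of lost peaks without CTCF on the other chromosomes, and 12 of them (3.70%) were listed again in mid or late G1 against 52 of 599 (8.68%).

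Chromosome 14 came next, with 77 of the 923 lost peaks without CTCF (8.34%) and a lost share of 39.0% (interval 33.7% to 44.5%). Of these 77 peaks 60 lay beyond 80 Mb, against 53 of the 202 kept peaks of that chromosome. The limit of 80 Mb followed no rule set beforehand, so these counts only describe where the peaks lay. Chromosome 14 also held 19 of the 117 gained peaks without early-G1 CTCF (16.2%). No lost peak without CTCF was found on chromosome X. Among Rad21 peaks without CTCF of other stages, chromosome 1 held 29.1% of the early-G1 peaks and 24.6% of the pro-metaphase peaks. Its share was smaller later, at 17.2% for mid G1, 13.9% for asynchronous cells and 10.3% for late G1. The late-G1 value was close to the 9.52% of kept Rad21 peaks and the 10.6% of lost peaks with CTCF. A high share on chromosome 1 was thus not limited to ana/telophase, but late G1 did not show it. The cause was not tested. Without chromosome 1, a choice made after seeing the data, 74.8% of ana/telophase peaks were kept, ana/telophase CTCF overlapped 65.9% of lost peaks, and 60.4% of lost peaks were in mid or late G1.

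**Figure D4:**
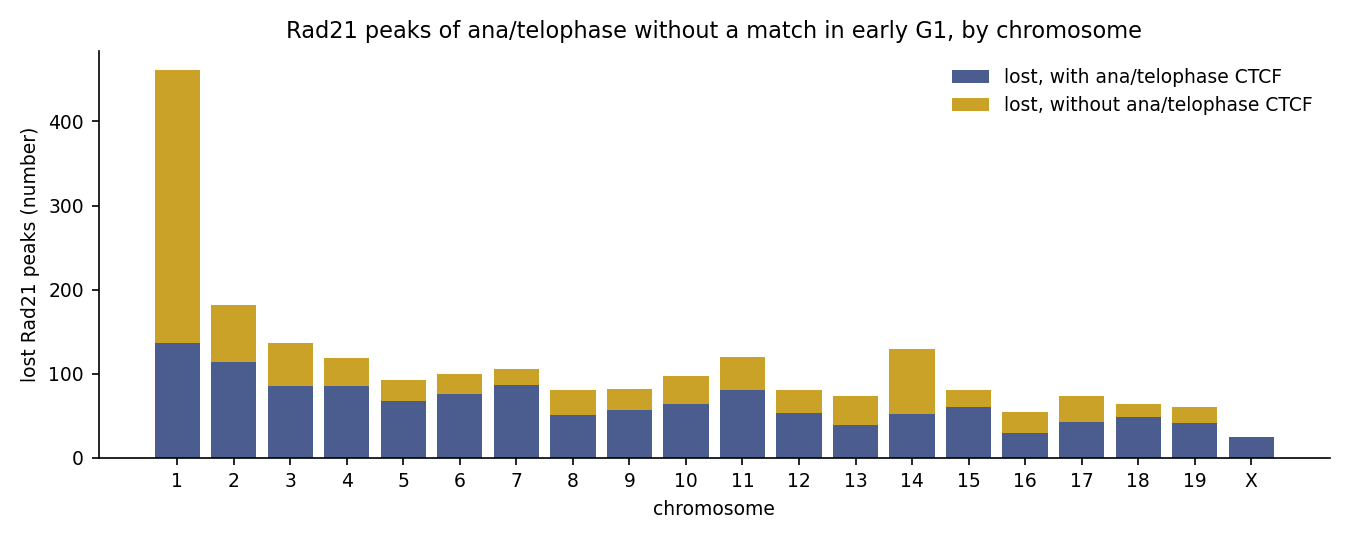
Number of lost Rad21 peaks (vertical axis) on each chromosome (horizontal axis), stacked by whether an ana/telophase CTCF peak overlapped them. Chromosome 1 has 461 lost peaks, 324 of them without CTCF, and chromosome 14 has 77 without CTCF.

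Hi-C, which reads contacts between pairs of genomic positions, gave 7029 loops in early G1, of which 6128 had no loop with both anchors within 20 kb in pro-metaphase or ana/telophase and are called new. An anchor of a new loop overlapped 60.8% (interval 59.5% to 62.0%) of kept, 48.6% (46.8% to 50.4%) of gained and 21.5% (19.8% to 23.3%) of lost peaks. The whole early-G1 Rad21 list stood at 56.7% and the early-G1 CTCF list at 35.1%. Early-G1 CTCF peaks with no Rad21 peak of either stage were at 27.3% (26.8% to 27.9%). Lost peaks with CTCF were at 31.8% (29.3% to 34.5%), closer to CTCF sites without Rad21 than to kept peaks, and lost peaks without CTCF were at 7.04%. Lost peaks that were listed again in mid or late G1 were at 33.6%, and the others at 7.72%.

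The lower share at gained than at kept peaks went with their lower rank. Within the strongest quartile of early-G1 Rad21 peaks, 73.5% (63.9% to 81.8%) of gained and 72.8% (70.9% to 74.7%) of kept peaks lay at a new loop anchor, and within the weakest quartile 43.0% (40.2% to 45.8%) and 46.1% (42.7% to 49.5%) did. The intervals of gained and kept peaks overlapped in all 4 quartiles. For lost and kept peaks of ana/telophase they were apart in all 4: in the weakest quartile the shares were 15.8% (13.8% to 18.0%) and 53.0% (49.5% to 56.5%). In the strongest quartile they were 41.4% of only 29 lost peaks and 69.3% of kept peaks. CTCF rank gave another order among strong CTCF peaks. Among the strongest quartile of early-G1 CTCF peaks, the share at new loop anchors was 62.8% (61.2% to 64.3%) with kept, 49.8% (46.6% to 52.9%) with gained and 39.5% (35.5% to 43.7%) with lost Rad21, and 33.9% (32.3% to 35.6%) with none. This order did not extend to weak CTCF peaks: in the weakest quartile the share was 42.2% with kept and 43.5% with gained Rad21, and 21.0% with lost Rad21 against 24.2% with none. In the second quartile it was 53.2%, 52.2%, 24.1% and 26.5%, and in the third 59.5%, 49.8%, 29.5% and 29.2%.

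**Figure D5:**
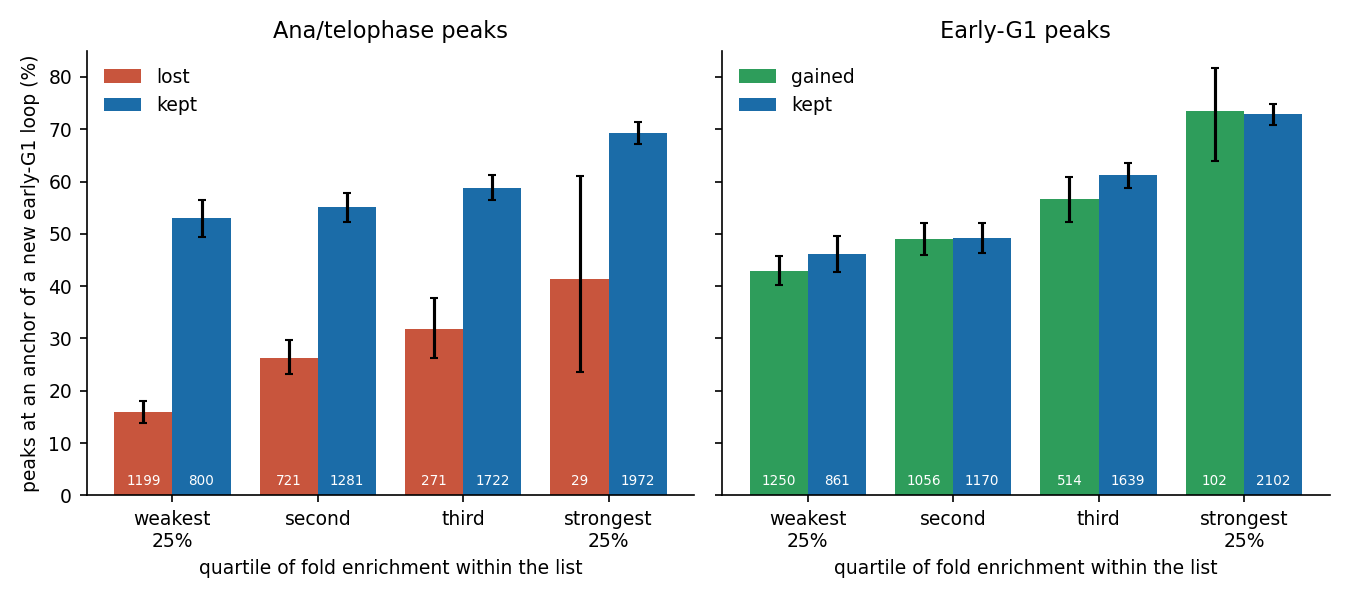
Share of Rad21 peaks at an anchor of a new early-G1 loop (%, vertical axis) by quartile of fold enrichment within the list (horizontal axis), for lost and kept ana/telophase peaks (left) and gained and kept early-G1 peaks (right); numbers in the bars are peaks and error bars are exact 95% binomial intervals. Gained and kept peaks overlap in every quartile, while lost peaks lie below kept peaks, from 15.8% against 53.0% in the weakest quartile.

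Seen from the loops, some new loops had Rad21 at both anchors only if gained peaks were counted. Early-G1 Rad21 lay at both anchors of 1992 new loops (32.5%, interval 31.3% to 33.7%), and ana/telophase Rad21 lay at both anchors of 1426 (23.3%). In 757 of the 1992 (38.0%, interval 35.9% to 40.2%) a gained peak was the only early-G1 Rad21 at 1 or both anchors. Among the 320 loops with Rad21 at both anchors that had already been called in pro-metaphase or ana/telophase this share was 24.7% (20.1% to 29.8%). For scale, 33.6% of all early-G1 Rad21 peaks were gained. Of the 11150 distinct anchors of new loops, 39.2% held a kept peak and 12.0% a gained but no kept one. How far this make-up sets the 38.0% was not tested. CTCF of ana/telophase was at both anchors of 685 of the 757. At 153 new loops ana/telophase Rad21 lay at both anchors but early-G1 Rad21 did not.

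New loops that used gained peaks were of similar size to those with kept peaks, and those with a kept and a gained anchor had a lower contact ratio. The median size was 170 kb (interval 170 to 180 kb) with kept peaks at both anchors (1235 loops), 170 kb (160 to 190 kb) with a kept and a gained anchor (651 loops) and 160 kb (150 to 190 kb) with gained peaks at both (106 loops). The median ratio of observed to expected contacts was 4.14 (4.04 to 4.31), 3.90 (3.74 to 4.03) and 3.90 (3.50 to 4.31), so that the interval of the mixed loops lay below that of loops with kept peaks and the interval of loops with gained peaks at both anchors overlapped it. With early-G1 Rad21 at 1 anchor it was 3.32 (2596 loops) and with none it was 2.83 at a median size of 120 kb (1540 loops). In late G1, 94.3% of loops with kept peaks at both anchors, 95.2% of the mixed loops and 98.1% (93.4% to 99.8%) of those with gained peaks at both were called, against 84.9% (83.0% to 86.7%) of those without Rad21. The highest ratio among new loops with gained peaks at both anchors, on chromosome X with anchors 99410001 to 99430000 and 99660001 to 99680000, was 11.7 at a size of 260 kb. Its gained peaks had a fold of 5.21 and 6.04, both anchors held ana/telophase CTCF and neither a kept peak, and the loop was called in mid and late G1. On chromosome 1, the anchors 178800001 to 178820000 and 179610001 to 179630000 formed a new loop of 810 kb with gained peaks of fold 7.18 and 11.3.

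The share of new loops with Rad21 at both anchors was higher among long loops, at 26.9% under 100 kb, 28.9% from 100 to 190 kb, 38.1% from 200 to 390 kb and 56.7% (50.9% to 62.3%) from 400 kb. The share that needed a gained peak did not follow size in order, at 32.8%, 42.9%, 37.4% and 33.3% of the loops with Rad21 at both anchors. Of the 908 ana/telophase loops 80.8% were also called in early G1. It was 85.5% (79.4% to 90.4%) of the 173 with kept Rad21 at both anchors and 50 of the 60 (83.3%, interval 71.5% to 91.7%) with a lost but no kept peak at an anchor. It was 75.2% (70.7% to 79.4%) of the 404 without ana/telophase Rad21. The intervals of the 173 and the 60 loops overlapped. Some of the 60 held a kept peak at their other anchor, so they are not loops with lost peaks alone. Of the 297 loops with a kept peak at 1 anchor only, 85.2% (80.6% to 89.0%) were called in early G1.

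Stripe anchors gave the same order of classes. Of the 1753 early-G1 stripes 1481 were new, meaning that their anchor overlapped no anchor of the same direction in pro-metaphase or ana/telophase. A new stripe anchor overlapped 18.4% (interval 17.4% to 19.5%) of kept, 10.4% (9.35% to 11.6%) of gained and 3.15% (2.47% to 3.97%) of lost peaks, against 15.7% of all early-G1 Rad21 peaks and 6.6% of all early-G1 CTCF peaks. Within the strongest quartile of early-G1 Rad21 peaks gained and kept peaks were at 26.5% (18.2% to 36.1%) and 27.9% (26.0% to 29.8%). Of the new stripe anchors 62.1% held a kept peak, and 11.1% held a gained peak and no kept one. Median stripe length was 290 kb (280 to 300 kb) with a kept peak and 260 kb (240 to 290 kb) with a gained peak alone. The longest new stripe with a gained peak in its anchor ran 1830 kb on chromosome 14 from the anchor 97340001 to 97370000, which held the gained peak at chr14:97361603-97362025 beside a kept one.

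New domain boundaries were near a slightly larger share of gained than of kept peaks, and the interval of lost peaks overlapped both. A boundary of early G1 with none within 20 kb in pro-metaphase or ana/telophase lay within 20 kb of 10.8% (9.51% to 12.1%) of lost, 9.34% (8.60% to 10.1%) of kept and 11.4% (10.3% to 12.6%) of gained peaks. Kept and gained peaks make up the whole early-G1 list, so the share of that list lies between 9.34% and 11.4%. Each class was thus near the whole-list share for new boundaries. Ana/telophase boundaries, in contrast, gave the order of the loop and stripe anchors, and lay within 20 kb of 29.2% (28.1% to 30.4%) of kept, 24.7% (23.2% to 26.3%) of gained and 18.3% (16.7% to 20.0%) of lost peaks.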

How the data were processed

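CTCF and Rad21 ChIP-seq and in situ Hi-C had been carried out on sorted cells, per the labels' protocols, with 2 Rad21 samples per stage. The titles gave each sample's assay, target and stage. Per the submitters' processing notes the build was mm9, the ChIP-seq tools were MACS2 2.1.0, Bowtie 0.12.7, bedtools 2.27.1 and SAMtools 1.7, and the Hi-C tools were HiC-Pro and Bowtie2. The peak names in the deposited lists say that replicates were merged and downsampled. Each peak has the authors' fold enrichment, a ratio, and the deposited −log10 p and −log10 q. Per the file headers, loops come with a p-value, an expected contact value and a signal of observed contacts. Stripe lists give a deposited ratio of observed to expected contacts. Read depth, the normalization of contacts and the callers of loops, stripes and domains were not given in the sources used here.

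Overlaps were computed in Python 3.11.15 with pandas 2.3.3, NumPy 2.4.6 and SciPy 1.17.1. Figures used Matplotlib 3.10.9. On simulated lists of 3000 and 2000 intervals, 8 of 8 tests of the overlap code gave the answer of bedtools 2.31.1 or the known one. Percentiles are ranks of fold enrichment within a list, and quartiles were cut by fold within each list. A loop matched another whose 2 anchors each lay no more than 20 kb from its own. A loop or stripe anchor carried a peak that overlapped it by 1 bp. A boundary was near a peak if it lay within 20 kb of the summit. No test was run, since pooled lists hold no replicates.

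Regions named are the strongest lost and gained peaks by CTCF status and later presence, the kept pairs with the highest ranks or the largest rank differences, and the loops and stripes with gained peaks that were strongest or longest. Not all of them are printed. The Rad21 peaks, classes and comparisons were chosen with earlier results of these data known. Gene positions and sequences of mm9 were not used here, so no genes or sequences are given. RNA polymerase II, input and Capture-C samples were not analysed here. The alternatives were stricter overlaps, summit distance, limits on −log10 q, fold and width, ranks by −log10 p, lists of equal length, other loop match distances, widened anchors, a lower loop p-value, longer stripes, and lists without chromosome 1.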

Additional observations from a re-analysis of the deposited data

How the results depend on the processing

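Of 162 alternative values for 27 results, 85 stayed within the interval of the reported value and 77 moved beyond it. Kept peaks had the largest and lost peaks the smallest share with CTCF of either stage and at new loop and stripe anchors under the settings run, except that with 50% overlap early-G1 CTCF was more frequent at gained than at kept peaks, and with a fold of at least 5 ana/telophase CTCF was at a slightly larger share of lost than of gained peaks.

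With a −log10 q of at least 5 in the Rad21 lists, 80.7% of ana/telophase peaks were kept and 37.6% of early-G1 peaks gained. CTCF of ana/telophase was then at 82.8% of lost, 98.9% of kept and 87.9% of gained peaks, and that of early G1 at 84.5% of lost and 97.9% of gained. Median percentiles were 26.5 (lost), 57.7 (kept, ana/telophase) and 65.2 (kept, early G1), and median widths 176, 226, 202 and 257 bp (lost, kept in ana/telophase, gained, kept in early G1). Of lost peaks 77.4% were in mid or late G1, 29.7% at new loop anchors and 4.41% at new stripe anchors. Of gained peaks 94.5% were in mid G1, and 30.8% of new loops had Rad21 at both anchors, 13.8% needing a gained peak.

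With a fold of at least 5, 78.9% were kept and 39.99% gained. CTCF of ana/telophase was at 90.6%, 99.1% and 89.95% of lost, kept and gained peaks, and that of early G1 at 92.0% of lost and 98.7% of gained. Median percentiles were 24.4 (lost), 58.3 (kept, ana/telophase), 30.8 (gained) and 65.4 (kept, early G1), widths were 185, 231, 214 and 263 bp in the order above, and 83.9% of lost peaks were in mid or late G1 and 98.7% of kept peaks in mid G1. With a width of at least 150 bp, 76.5% were kept and 35.9% gained, CTCF was at 63.4% (ana/telophase) and 64.4% (early G1) of lost peaks, percentiles were 22.8 (lost) and 60.1 (kept), and 57.99% of lost peaks were in mid or late G1.

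With lists of equal length, 68.7% were kept and 31.3% gained. With overlaps of at least 50% of both peaks, ana/telophase CTCF was at 26.9%, 65.1% and 63.3% of lost, kept and gained peaks and early-G1 CTCF at 33.2%, 76.6% and 78.5%, 51.0% of lost peaks were in mid or late G1, and 90.2% of gained and 97.0% of kept peaks in mid G1. With summits within 100 bp, CTCF was at 97.6% (ana/telophase) and 98.9% (early G1) of kept and 94.6% of gained peaks in early G1. Ranked by −log10 p, the median lost peak was at percentile 20.6.

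Without chromosome 1, chosen after seeing the data, 74.8% were kept, CTCF was at 65.9% (ana/telophase) and 67.0% (early G1) of lost and 96.97% of gained peaks in early G1, median percentiles were 23.5 (lost) and 60.4 (kept), and 60.4% of lost peaks were in mid or late G1 and 93.5% of gained peaks in mid G1. With anchors widened by 10 kb, new loop anchors held 28.0%, 66.4% and 55.5% of lost, kept and gained peaks and new stripe anchors 5.09%, 23.4% and 14.3%, and 38.5% of new loops had Rad21 at both anchors, 14.3% needing a gained peak. With loops matched within 40 kb, 58.9% of kept peaks were at new loop anchors. With loops limited to p-values up to 0.1 times the largest one deposited, 33.7% of new loops had Rad21 at both anchors. A minimum stripe length of 100 kb changed no value. The limits on −log10 q and fold remove weak peaks by construction and that on width removes narrow ones. The classes were then made again from the cut lists. The width limit removed 712 ana/telophase peaks of 149 bp and no early-G1 peak, as the narrowest of these was 160 bp wide. A kept peak whose partner was removed thus counted as lost or gained. For the other settings the cause was not tested.

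No paired analysis was possible because each list pools the samples of its stage. Leaving out each replicate was not run for the same reason. Read depth is unknown for these lists.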
